A study of Mus musculus with 12 samples.

Results

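The miR-34 family was followed in carotid arteries of female apoE-/- mice, which lack apolipoprotein E and develop atherosclerosis on a fatty diet. The family was represented by 4 of the 513 miRNA assays with values: mmu-miR-34a, mmu-miR-34b-3p, mmu-miR-34c and mmu-miR-34c*. The members were taken by name, with all arms that had an assay, but the family itself was chosen on earlier results of these 12 samples, in which the difference of miR-34a between ligated and control arteries was known. The ligated-minus-control values below are therefore a description, and no p-value is given for them. The 6 ligated samples were left carotid arteries whose external and internal branches and occipital artery had been tied off, so that blood left mainly through the superior thyroid artery, and the 6 controls were untreated right carotid arteries. Age is given as 6 to 8 weeks, and after ligation a high-fat diet (21% fat, 0.15% cholesterol) was fed for 6 weeks, so the controls shared the genotype and the diet. The labels call the ligated arteries atherosclerotic and the controls non-atherosclerotic, and number the samples of each group 1 to 6. They name 6 mice but do not say which arteries came from the same mouse.

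miRNAs of the miR-34 family are cut from hairpin precursors of 2 loci, 1 for miR-34a and 1 for miR-34b and miR-34c, which are made from a common primary transcript. The tumour suppressor p53 binds near both promoters and raises their transcription after DNA damage, and the mature miRNAs lower cell-cycle, survival and deacetylase mRNAs such as Cdk6, Bcl2 and Sirt1. In vessels miR-34a is known from ageing and senescent endothelial and smooth muscle cells, while miR-34b and miR-34c are abundant in multiciliated epithelium and testis. p53 itself was not measured here.

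The mature sequences show which members could pair with the same targets, since a miRNA recognises mRNAs mainly through its seed, bases 2 to 8, printed in capitals. RefSeq's table (GRCm38.p6) held 3 of the 4 members, matched by name, with the unstarred miR-34a assay read as the 5p arm and the starred assay as the 3p arm. The miR-34c assay was read as the 5p arm, mmu-miR-34c-5p. The miR-449 miRNAs are shown because they share the miR-34a seed.
mmu-miR-34a-5p: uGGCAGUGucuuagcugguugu
mmu-miR-449a-5p: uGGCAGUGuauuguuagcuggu
mmu-miR-449c-5p: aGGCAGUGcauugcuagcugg
mmu-miR-34b-3p: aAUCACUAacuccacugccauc
mmu-miR-34c-3p: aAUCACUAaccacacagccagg

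The printed sequences fell into 2 seed groups. miR-34a-5p carried the same seed as both miR-449 miRNAs and was identical to miR-449a-5p at 15 of 22 positions counted from the 5′ end. The table held 4 mature miRNAs with that seed: miR-34a-5p, miR-449a-5p, miR-449c-5p and miR-34b-5p, which was not among the family's assays. The seed of miR-34a was thus also found on the other arm of the miR-34b hairpin. miR-34c-5p was not in the table, so its seed was not compared. miR-34b-3p and miR-34c-3p, from the other arm of their hairpins, carried a different seed, were identical at 17 of 22 positions and were the only 2 of the 1738 mature miRNAs in the table with that seed. miR-34a-5p lies on the plus strand at chr4:150068473-150068494, outside any other annotated gene. miR-34b-3p lies on the minus strand at chr9:51103574-51103595 and miR-34c-3p at chr9:51103044-51103065. Their hairpins are 451 bases apart, within the bounds of the annotated genes Btg4 and Hoatz. The miR-449 hairpins lie within Cdc20b on chromosome 13.

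Levels were read from threshold cycles (Ct) of quantitative PCR, where 1 cycle less stands for a doubling of RNA at full efficiency and a well with no product is listed at 40. A Ct below 35 counted as detected. A level is the mean Ct of the 283 miRNAs found in every sample minus the assay's own Ct, on a log2 scale. The 339 assays that reached detection in 4 or more of the 6 samples of either group were fitted. All 4 miR-34 assays were detected in all 12 samples, the highest Ct being 30.477 for miR-34c, so none of their values rests on an undetected well and all 4 entered the fit. Different assays amplify with different efficiency, so levels are compared between samples and not between assays.

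Before the results, 2 features of the samples bear on them. Numbers 1 to 3 formed one set and numbers 4 to 6 another in both groups, and values within each set are given. Ligated sample 1 stood apart by 12 assays that lay over 3 log2 units above the rest of its group, against 0 to 6 in the other 11 samples, and differences are given with and without it. The 2 miR-126 arms listed for endothelium and the 5 miRNAs listed for contractile smooth muscle were detected in every sample. Whether the latter came from the arteries' own smooth muscle or from other muscle was not tested.

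All members of the family were higher in ligated than in control arteries, by 3.56-fold to 7.05-fold. In whole arteries, more cells of a type and more RNA per cell cannot be told apart. miR-34a, the member with its own locus and the one most studied in ageing vessels, had control levels from -0.29 through a median of 0.80 to 1.49 and ligated levels from 1.20 through 2.48 to 3.79. The ranges overlapped in 1 pair of samples, control 5 lying above ligated sample 2 and below the other ligated samples. Its mean was 0.66 ± 0.69 (SD, n = 6) in controls and 2.49 ± 1.18 (SD, n = 6) in ligated arteries, a difference of 1.83 ± 0.53 (SE) on the log2 scale or 3.56-fold. In raw cycles the miR-34a groups did not overlap, with a Ct of 24.171 to 25.291 in controls and 21.216 to 22.99 in ligated arteries. Nor did those of miR-34c, with a lowest control Ct of 27.766 and a highest ligated Ct of 27.502. Those of miR-34b-3p (24.329 and 24.395) and miR-34c* (25.595 and 26.15) did overlap in raw cycles. Unscaled Ct had a median difference of 0.93 over all fitted assays, and the share of assays without overlap there was not counted.

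miR-34b-3p, a product of the second locus, had control levels from -1.79 through -1.07 to 0.12 and ligated levels from 0.63 through 1.10 to 3.66. Every ligated sample lay above every control, with a gap of 0.51 between the groups. The mean went from -1.004 ± 0.74 (SD, n = 6) to 1.57 ± 1.14 (SD, n = 6), a difference of 2.57 ± 0.53 (SE) or 5.95-fold. Ligated sample 1 was the highest, with ligated sample 3 next at 2.06.

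miR-34c, the guide strand next to miR-34b, had control levels from -5.43 through -3.59 to -3.15 and ligated levels from -3.31 through -0.46 to -0.05. The ranges overlapped through ligated sample 2, which lay below the highest control. The mean went from -3.99 ± 0.94 (SD, n = 6) to -1.17 ± 1.41 (SD, n = 6), a difference of 2.82 ± 0.65 (SE) or 7.05-fold, the largest of the family. miR-34c*, the other arm of the same hairpin, had control levels from -3.48 through -2.49 to -1.15 and ligated levels from -1.14 through -0.38 to 2.76. Its groups met without overlapping, at a gap of 0.0065. The mean went from -2.48 ± 0.92 (SD, n = 6) to 0.16 ± 1.49 (SD, n = 6), a difference of 2.64 ± 0.67 (SE) or 6.22-fold.

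**Figure D1:**
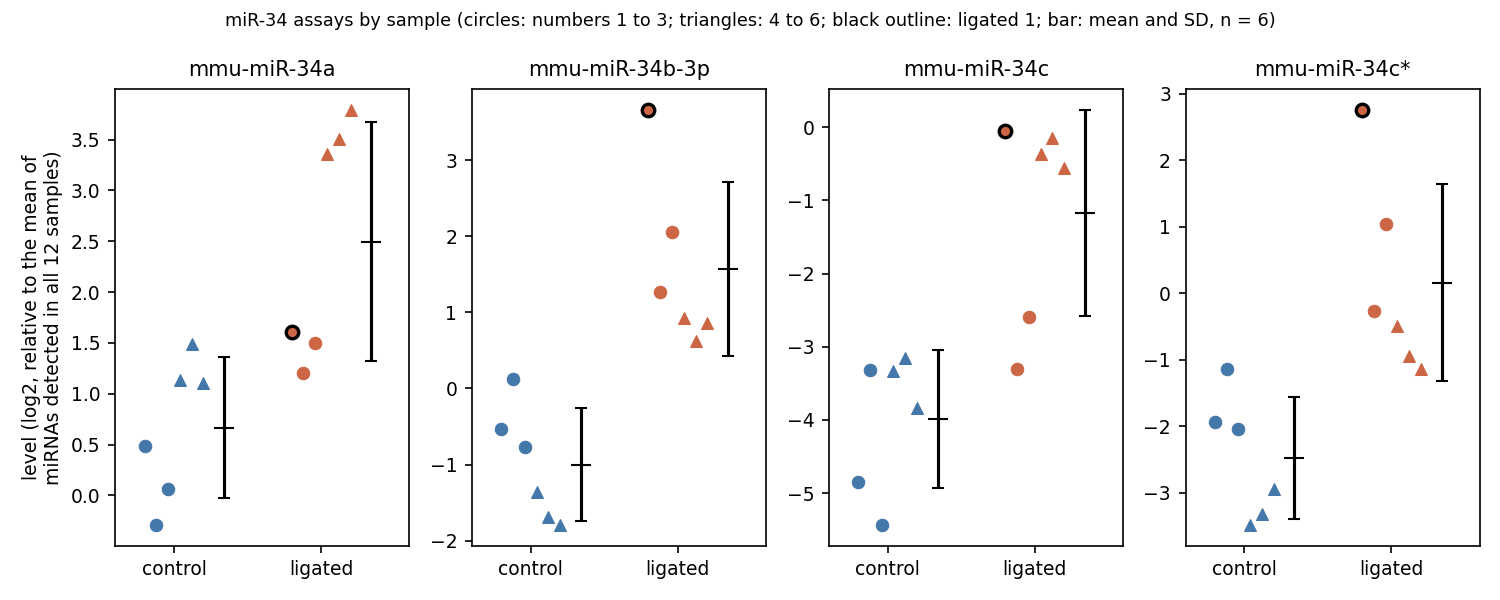
Level of each miR-34 assay (vertical axis, log2, against the mean of the 283 miRNAs found in every sample; panels differ in range) in 6 control and 6 ligated arteries. Points are samples, circles numbered 1 to 3 and triangles 4 to 6, with ligated sample 1 outlined in black; bars are the mean and SD. The groups are apart for miR-34b-3p, meet for miR-34c* and overlap for miR-34a and miR-34c, and within each group circles and triangles separate for all members but miR-34c.

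Compared number by number, all 4 members were higher on the ligated side in 6 of 6 cases, though the labels do not pair the numbers by mouse. So were assays that were not called, among them let-7i and miR-132, and the share over all fitted assays was not counted. Among the 339 assays fitted with limma (Benjamini-Hochberg adjustment, adjusted p below 0.05), 12.4% were called, 7.37% as higher and 5.01% as lower in ligated arteries, and all 4 members were among those called higher. The 6 ligated samples all lay above the 6 controls for 4.72% of assays and for 2 members. Within numbers 1 to 3 and within numbers 4 to 6 alike, the ligated samples all lay above the controls for 8.55% of assays and for all 4 members, although for miR-34c in numbers 1 to 3 the gap was 0.0086. Since the family was chosen on this contrast, the calls and the counts of samples without overlap are printed beside the background. Nothing is read from any of these counts. In the order of differences the members ranked 9 for miR-34c, 10 for miR-34c*, 11 for miR-34b-3p and 22 for miR-34a, while the median over all fitted assays was -0.05.

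**Figure D2:**
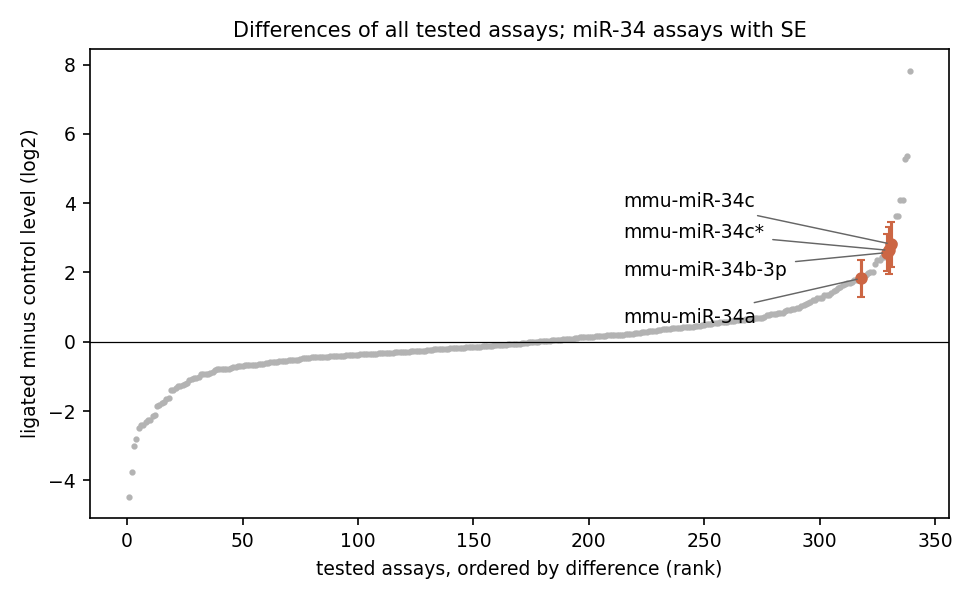
Ligated-minus-control difference (vertical axis, log2) of the 339 fitted miRNA assays in rank order (horizontal axis). Grey points are single assays, and the 4 miR-34 assays are orange with their SE. They lie between 1.83 and 2.82, toward the upper end of the curve.

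The members' calls under other settings are given as a description too. Over 27 alternatives miR-34a passed in 12, miR-34b-3p in 26, miR-34c in 24 and miR-34c* in 23. These alternatives reuse the samples on which the family was chosen, so the tally is not read as support for any member. With 3 samples a group, no member passed within numbers 1 to 3, where 5 of 339 assays were called higher. All 4 passed within numbers 4 to 6, where 50 of 339 were called higher. miR-34a did not pass without control 1, 2, 3, 4 or 6 or ligated 4, 5 or 6, and miR-34c* did not without control 4, 5 or 6. When each sample was scaled to U6 and snoRNA429, the reference RNAs of the deposited values, miR-34a and miR-34c did not pass, with differences of 1.63 ± 1.00 (SE) and 2.61 ± 1.06 (SE).

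The ligated-minus-control difference was positive in both sets of numbers for all 4 members. Within numbers 1 to 3 and numbers 4 to 6 the differences were 1.35 and 2.31 for miR-34a, 2.72 and 2.42 for miR-34b-3p, 2.55 and 3.08 for miR-34c, and 2.88 and 2.39 for miR-34c*. The change from the first set to the second was 0.96 ± 0.35 (SE) for miR-34a, with an adjusted p of 0.545 in limma's interaction test over all 339 assays. For the other members it was -0.30 ± 0.73 (SE), 0.53 ± 1.11 (SE) and -0.49 ± 0.89 (SE), with adjusted p-values from 0.873 to 0.895 (limma). These tests do not show that the sets acted alike, and the change depended on ligated sample 1. Without it the change was 0.37 ± 0.44 (SE) for miR-34b-3p and 0.30 ± 0.58 (SE) for miR-34c*, of opposite sign, and 1.499 ± 0.75 (SE) for miR-34c, with adjusted p-values of 0.696, 0.798 and 0.336 (limma).

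The mean level of a member shifted between the sets in both groups. miR-34a and miR-34c had higher means in numbers 4 to 6, by 1.16 and 1.10 in controls and by 2.12 and 1.63 in ligated arteries. miR-34b-3p and miR-34c* moved the other way, with shifts of -1.22 and -1.55 in controls and of -1.52 and -2.04 in ligated arteries. The shift thus divided the members into miR-34a with miR-34c and miR-34b-3p with miR-34c*, which cuts across the 2 loci. What separates the sets is not given in the labels, and its part in these levels was not tested.

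Sample by sample, the members of the second pair stayed closer together than those of the first. miR-34a minus miR-34c ran from 1.66, in ligated sample 1, to 5.49. The SD of this difference was 1.06, against SDs of 1.33 and 1.86 for the levels. The levels of miR-34a and miR-34c had a Pearson r of 0.83 over 12 samples, and 0.92 without ligated sample 1. The within-sample difference of miR-34b-3p and miR-34c*, the pair with a common seed from neighbouring hairpins, ran from 0.91 to 2.12 over the 12 samples, with an SD of 0.36 against SDs of 1.63 and 1.81 for the levels themselves. Their levels had a Pearson r of 0.98 over 12 samples, and 0.97 without ligated sample 1, as a description of samples that share group, set and scaling. The arms of the miR-34c hairpin differed far more unevenly. miR-34c minus miR-34c* ran from -3.63 to -2.17 in numbers 1 to 3 and from -0.89 to 0.81 in numbers 4 to 6, so that the 2 sets did not overlap.

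Among 48 hairpins whose unstarred and starred assays were both detected in all 12 samples, this shift of 3.15 between the sets was the second largest upward, with a median of 0.09 and a range from -3.94 to 4.03. The ligated-minus-control differences of the 2 arms nevertheless lay close together. They were 0.18 apart for miR-34c, against a median of 0.50 over the 48 hairpins.

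**Figure D3:**
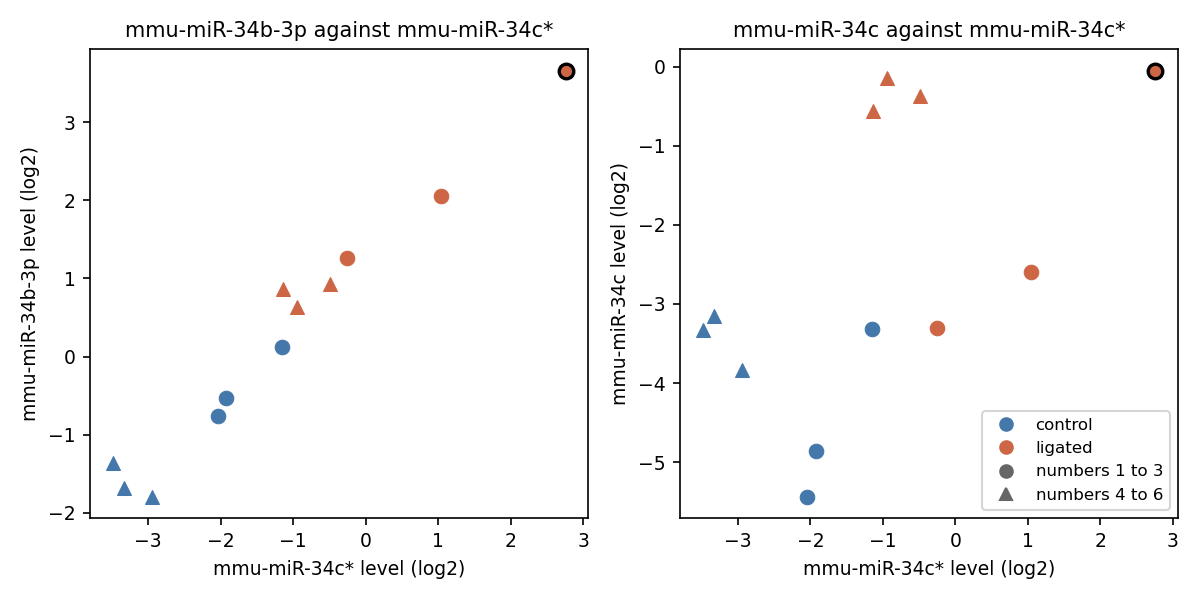
Level of miR-34b-3p (left) and of miR-34c (right) against the level of miR-34c* in the same sample (all log2), for 12 samples, blue for control and orange for ligated, circles for numbers 1 to 3 and triangles for 4 to 6, with ligated sample 1 outlined. On the left the 12 points lie near 1 line (r of 0.98). On the right the triangles lie above the circles, with a mean miR-34c minus miR-34c* of 0.16 against -2.996.

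Ligated sample 1 held the highest level of miR-34b-3p, miR-34c and miR-34c* of all 12 samples. Its level was 3.66 for miR-34b-3p and 2.76 for miR-34c*, with ligated sample 3 next at 2.06 and 1.04. For miR-34c it led only narrowly, at -0.05 against -0.14 in ligated sample 5. It did not hold the highest level of miR-34a, where its 1.61 lay below ligated samples 4, 5 and 6. Without it the differences were 2.01 ± 0.55 (SE) for miR-34a, 2.15 ± 0.40 (SE) for miR-34b-3p, 2.59 ± 0.67 (SE) for miR-34c and 2.12 ± 0.51 (SE) for miR-34c*, or 4.02-fold to 6.03-fold. The miR-34b-3p groups also remained apart, since the lowest ligated level was that of sample 5.

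The miR-449 miRNAs, which share the miR-34a seed and are made with miR-34b and miR-34c in multiciliated epithelium, stood out in this sample. miR-449a had a Ct of 21.198 in ligated sample 1 and of 28.382 to 34.273 in the other 11, which put its level 6.47 log2 units above the next sample. miR-449c had a Ct of 22.921 against 30.523 to 32.962, and a level 5.59 above the next sample. miR-449b was detected in no sample. Neither tested miR-449 assay passed the group comparison, with differences of 1.79 ± 1.54 (SE) and 1.14 ± 1.14 (SE) and limma adjusted p-values of 0.553 and 0.613. Of these, none of 2 had an unadjusted p under 0.05, against 67 of all 339 fitted assays. Without ligated sample 1 the miR-449 differences were 0.31 and -0.0054.

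Epithelial miRNAs were high in the same sample. Of the 8 listed, all were detected in ligated sample 1 and 5 to 8 in each other sample, and 6 of the 8 were highest in ligated sample 1: miR-200a, miR-200b, miR-200c, miR-141, miR-429 and miR-205, by 3.42 to 5.20 log2 units over the next sample. miR-203 and miR-375, which mark skin and endocrine epithelium, were not. Of the 7 epithelial miRNAs tested, miR-375 fell by 3.75 ± 0.85 (SE; limma adjusted p of 0.0148), and the other 6 did not pass. The list median was 1.22 over these 7. Without ligated sample 1 it was 0.02 over 6, since miR-200a then no longer reached the detection needed to be fitted, so the 2 medians cover different members. The summed level of the list was 6.02 in ligated sample 1, 2.09 to 3.36 in controls and 0.98 to 2.43 in ligated samples 2 to 6. Such a sum adds assays of unlike efficiency and follows those with the highest levels, in controls mainly miR-375 and miR-203. It therefore does not stand for every member of a list. The part of epithelial RNA in the miR-34b and miR-34c levels of ligated sample 1 was not tested.

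**Figure D4:**
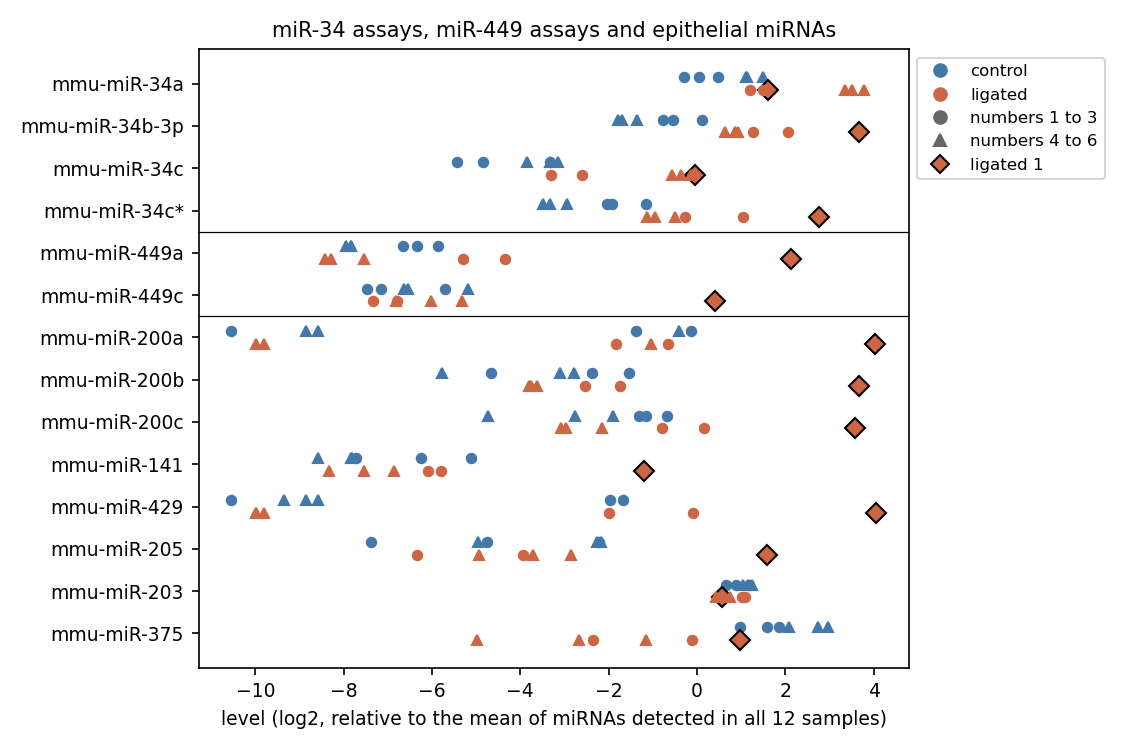
Level (horizontal axis, log2) of the miR-34 assays (top), the 2 detected miR-449 assays (middle) and 8 epithelial miRNAs (bottom) in each sample, blue for control and orange for ligated, with ligated sample 1 as an outlined diamond. Undetected wells are drawn at the detection limit. Ligated sample 1 lies to the right of all other samples for miR-34b-3p, miR-34c, miR-34c*, both miR-449 assays and 6 epithelial miRNAs, but not for miR-34a.

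Of 11 listed miRNAs outside the family that p53 induces or helps to process, known largely from human cells, none rose, 3 fell and 8 did not pass. Over all fitted assays 7.37% were called higher and 5.01% lower. The list's median difference was -0.05, equal to that of all fitted assays, and -0.26 without ligated sample 1. The 3 that fell were miR-107, from an intron of a pantothenate kinase gene, by 1.74 ± 0.42 (SE; limma adjusted p of 0.0200), and the smooth muscle miRNAs miR-143 and miR-145, which are also members of the contractile list, by 2.12 ± 0.40 (SE) and 2.39 ± 0.45 (SE), each with a limma adjusted p of 0.00669. Scaled to U6 and snoRNA429 none of these calls held, although the differences were no smaller, at -1.95 ± 0.87 (SE) for miR-107, -2.32 ± 0.76 (SE) for miR-143 and -2.60 ± 0.75 (SE) for miR-145. The call of miR-107 was also lost without control 4 or 6, at adjusted p-values of up to 0.0526 (limma). miR-192 and miR-194, which p53 induces in other tissues, had differences of -0.37 ± 0.35 (SE) and -0.35 ± 0.21 (SE), with limma adjusted p-values of 0.596 and 0.379.

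The clusters that p53 activity lowers, miR-17 to miR-92a and miR-106b to miR-25, had 0 of 9 members called in limma and 1 with an unadjusted p under 0.05. Over all 339 fitted assays 67 had such a p, and nothing is read from counts in lists this small. The median difference of the clusters was 0.12. miR-18a, a member of the first cluster, had 0.80 ± 0.26 (SE), with a limma adjusted p of 0.0685, or 0.0495 with the replicate number as a block. Of the miRNAs that bind p53 mRNA, miR-125b-5p, miR-25 and miR-30d had differences from -0.27 to -0.03 with 0 of 3 called in limma and 0 with an unadjusted p under 0.05, and miR-504 was detected in no sample.

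The 3 assays whose levels were most like those of a member over the 12 samples by Pearson r were taken from the 282 other assays detected in all samples. For miR-34a they were miR-21, with a Pearson r of 0.98, miR-142-3p with 0.98 and miR-221 with 0.93, where 95% of assays lay below 0.81. For miR-34c they were miR-18a with 0.92, miR-142-3p with 0.86 and miR-142-5p with 0.85. For miR-34b-3p they were miR-34c* with 0.98, miR-10b with 0.84 and miR-222 with 0.84, and for miR-34c* they were miR-34b-3p, miR-222 with 0.83 and miR-342-3p with 0.83. Without ligated sample 1 the miR-34b-3p values were 0.75 for miR-10b and 0.92 for miR-222. All these values include the group difference and the shift between sets.

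Among these neighbours, miR-21, which is abundant in injured vessels, was higher in ligated arteries by 2.86 ± 0.62 (SE). miR-221 and miR-222, made from 1 locus and known for promoting smooth muscle growth, were higher by 1.73 ± 0.40 (SE) and 1.57 ± 0.41 (SE). They were picked for levels like those of members chosen on this contrast. A difference in the same direction was thus partly built into the choice, and these values are a description without a p-value.

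With the mean of each group and set removed, the order changed. miR-34b-3p then lay closest to miR-34c (r of 0.94), miR-34c* (0.92) and miR-449a (0.90). With ligated sample 1 left out of the correlation these values were 0.88, 0.84 and 0.76. The means removed still included ligated sample 1, so these values are not free of it. miR-34c lay closest to miR-34b-3p (0.94), miR-34c* (0.87) and miR-449a (0.82), and miR-34c* to miR-34b-3p (0.92), miR-449a (0.89) and miR-34c (0.87). The 3 products of the second locus were thus each other's near neighbours within groups and sets, whereas miR-34a lay closest to miR-1 (0.88), miR-133b (0.85) and let-7g (0.83). For miR-449a, the value with ligated sample 1 left out in the same way, its part in the means kept, was 0.61 with miR-34c and 0.76 with miR-34c*. miR-1, a muscle miRNA, went the other way from miR-34a between the groups, where it fell by 1.75 ± 0.45 (SE; limma adjusted p of 0.0238), and let-7g had a difference of -0.09 ± 0.25 (SE; limma adjusted p of 0.885). These correlations are descriptions over 12 samples, 3 to each combination of group and set.

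Markers of blood cells differed between the groups as well. Of the 6 leukocyte miRNAs, 4 rose and none fell, where 7.37% of all fitted assays were called higher and 5.01% lower. The 4 were miR-155, miR-142-5p, miR-142-3p and miR-342-3p. The list median was 1.84, and the summed level was 5.79 to 6.74 in controls and 6.85 to 8.75 in ligated arteries. All 6 were detected in every sample. miR-155, which activated macrophages and lymphocytes make, rose by 2.44 ± 0.38 (SE; limma adjusted p of 0.00494). The call of miR-342-3p was lost in 10 of 12 fits that left out 1 sample, all but those without control 2 or ligated 5, with limma adjusted p-values up to 0.102. That of miR-142-3p was lost in 8 of 12, all but those without control 5 or ligated 1, 2 or 3, with values up to 0.0886, while miR-155 and miR-142-5p kept theirs in all 12. Scaled to U6 and snoRNA429, the call of miR-342-3p held and the other 3 were lost, with differences of 2.24 ± 0.73 (SE) for miR-155 and 1.71 ± 0.70 (SE) for miR-142-5p and limma adjusted p-values of 0.165 and 0.335. miR-223, a myeloid miRNA, had a difference of 1.67 ± 0.57 (SE), with a limma adjusted p of 0.0905, or 0.00768 with the replicate number as a block. Of the 5 contractile smooth muscle miRNAs, 3 fell, against 5.01% of all fitted assays. These were miR-143, miR-145 and miR-1, whose calls were all lost when scaled to U6 and snoRNA429. miR-133b had a difference of -1.28 ± 0.63 (SE), with a limma adjusted p of 0.268, or 0.0321 with the replicate block. miR-1 no longer passed when control 1, 3, 4 or 5 or ligated 2 or 4 was left out, with limma adjusted p-values up to 0.0571. The summed level of the contractile list was 9.89 to 12.46 in controls and 8.49 to 9.93 in ligated arteries. It mostly repeats miR-145, whose own levels ran from 9.72 to 12.37 in controls. The part of these cell type markers in the miR-34 differences was not tested. The 2 endothelial miR-126 arms and 6 neuronal miRNAs had 0 members called in limma and 0 with an unadjusted p under 0.05. Over all 339 fitted assays 67 had such a p.

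The direction of the miR-34 differences was the same under every scaling tried. Scaled to U6 and snoRNA429 they were 1.63 for miR-34a, 2.37 for miR-34b-3p, 2.61 for miR-34c and 2.43 for miR-34c*. Raw Ct gave 2.82, 3.56, 3.80 and 3.62, on a scale where the median over all assays was 0.93, so that relative to this median they were close to the scaled values.

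**Figure D5:**
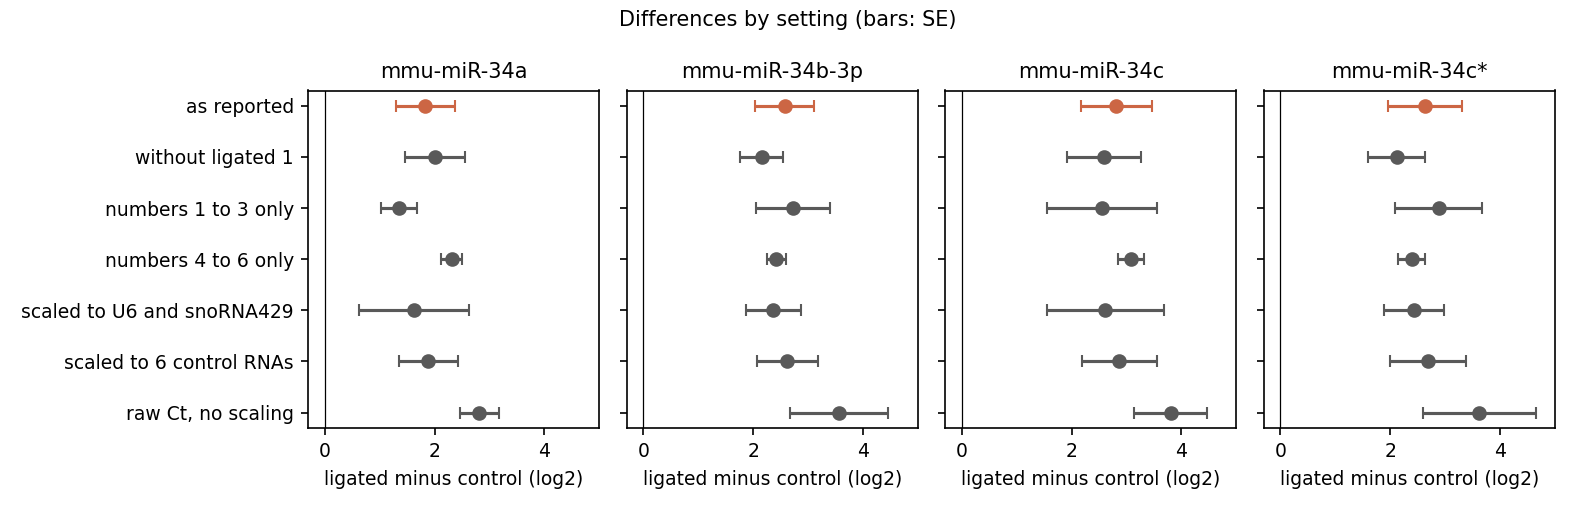
Ligated-minus-control difference (horizontal axis, log2, bars are SE) of each miR-34 assay as reported, without ligated sample 1, within each set of numbers, and under 3 other references. All points lie above 0, from 1.35 for miR-34a in numbers 1 to 3 to 3.80 for miR-34c in raw Ct.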

How the data were processed

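RNA was isolated with the mirVana kit, per the labels' protocols. The deposited main table holds raw Ct values, a minus log2 scale, per the file headers. For the instrument and threshold, nothing is stated in the sources used here. Repeated rows of control RNAs were averaged, and 4 blank miRNA assays, none of this family, were left out. In the deposited value table, 513 rows were the raw Ct less the U6 and snoRNA429 average to within 5e-05 cycles, with lower values for more RNA and column medians of 10.7 to 13.8. A further deposited table of a separate run holds no miR-34 assay.

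Undetected wells (Ct of 35 or more) were set to 35. limma 3.58.1 (lmFit, eBayes) in R 4.3.3 was fitted over 339 assays with a group term alone and p-values adjusted by Benjamini-Hochberg. It was tested on simulated data. The members, lists and alternatives were chosen with earlier results of these data known. Named miRNAs were the members, their nearest patterns, list members called or with the lowest p, seed relatives and the reference RNAs. After group means were removed, control and ligated samples of one number correlated at 0.252 to 0.697 across assays, and at -0.11 to 0.31 with the number sets removed. Numbers were therefore also fitted as pairs, as a replicate block. The labels call the samples biological replicates, and 6 samples a group limit the precision.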

Additional observations from a re-analysis of the deposited data

Results flagged for a closer look

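In 100 tests, of 50 members and list miRNAs in each of 2 groups, 4 had 1 sample far from the other 5 by Dixon's ratio. Chance alone flags about 1 group in 20 where tests are independent. These tests share the same samples, so the number of flags does not show whether they arose by chance. In 3 of the 4 flagged groups the sample was ligated 1. Its levels were 0.41 for miR-449c (next sample -5.32), 3.67 for miR-200b (next -1.75) and -1.19 for miR-141 (next -5.79). The other was miR-218, with a level of 6.06 in control 2 and 3.36 in the next control. No miR-34 assay had such a sample.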

How the results depend on the processing

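Every miR-34 difference was positive in all 27 alternatives, and all stayed within 1 SD between replicates of the reported value except with raw Ct, at 2.82 for miR-34a and 3.56 for miR-34b-3p. Leaving out 1 sample gave 1.57 to 2.08 for miR-34a, 2.15 to 2.80 for miR-34b-3p, 2.53 to 3.24 for miR-34c and 2.12 to 2.90 for miR-34c*. The change of these differences between the number sets passed in no alternative, but its sign turned without ligated sample 1 for miR-34b-3p (0.37) and miR-34c* (0.30), with U6 and snoRNA429 for miR-34b-3p (0.09), and without ligated sample 2 (-0.13) or control 2 (-0.08) for miR-34c, which without ligated sample 1 was 1.499.

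Counts of calls depended on the setting. The 25 higher and 17 lower assays became 7 and 3 with U6 and snoRNA429, 8 and 4 in the deposited values, 57 and 0 in raw Ct, 5 and 0 with only numbers 1 to 3, 50 and 51 with only numbers 4 to 6, and 30 lower with the sets as a block. Leaving out 1 sample gave 15 to 26 higher, with 15 for control 6 and 16 for control 4 left out. It gave 9 to 20 lower, with 9 for control 4, 10 for control 3, and 11 for control 1 or 6 or ligated 5 or 6. In the p53-linked lists, 0 rose and 3 fell; 3 rose and 0 fell in raw Ct, 0 fell with U6 and snoRNA429, in the deposited values and within numbers 1 to 3, 7 fell within numbers 4 to 6, and 1 rose there, at a limit of 32, and with the sets or the replicate number as a block (replicate block). Leaving out 1 sample gave 0 higher and 2 to 3 lower. In the cell type lists, 4 rose and 4 fell. There, 2 rose with U6 and snoRNA429, with the median as reference, at a limit of 38, with no filter, within numbers 1 to 3 and in the deposited values, and 2 to 3 rose and 3 to 4 fell without 1 sample, with 2 rising without control 1, 3, 4 or 6 or ligated 4 or 6. With U6 and snoRNA429 and in the deposited values 1 fell, in raw Ct and within numbers 1 to 3 0 fell, and within numbers 4 to 6 8 fell. miR-449a turned to -0.21 within numbers 4 to 6, and miR-449c to -0.0054 without ligated sample 1. The causes were not tested. The replicate block moved no other count by over 1.5 times, and among the lists it added calls of miR-18a, miR-223 and miR-133b. Detection does not limit the family, whose highest Ct lay 4.523 cycles below the limit.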
